A study of Homo sapiens with 4 samples.

Results

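The replication-dependent histone genes were taken as the protein-coding genes whose GENCODE 29 symbols begin with HIST1H, HIST2H, HIST3H or HIST4H. GENCODE 29 holds 71 such genes, and 67 of them were found by Ensembl number among the 60308 gene rows of the count tables. Among these 67 were 6 linker histone H1 genes, 17 H2A genes, 16 H2B genes, 15 H3 genes and 13 H4 genes. HIST1H4B, HIST1H2BF, HIST1H2BG and HIST1H4F were not matched by identifier and were not analysed here.

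The cells were VCaP, an established line from a human prostate cancer, grown in medium with serum. One group received the non-targeting control siRNA, siNTC, and the other, siZBTB7A, an siRNA to ZBTB7A, a zinc finger transcription factor. Each group had 2 count tables, which are called siNTC 1 and 2 and siZBTB7A 1 and 2 here. RNA was extracted on columns and made into stranded total RNA libraries, a method that does not select RNA by a poly(A) tail. The labels give no siRNA sequence, dose or harvest time, and nothing in them says that the tables of a group came from separate cultures.

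Replication-dependent histone genes supply the histones that package newly copied DNA. They lie in clusters, lack introns as a rule, and are transcribed mainly in S phase. Their mRNAs end not in a poly(A) tail but in a conserved stem-loop, which is bound by the stem-loop binding protein SLBP and cut with the help of the U7 small nuclear ribonucleoprotein. H2A, H2B, H3 and H4 form the core of the nucleosome, and H1 binds the linker DNA.

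The stem-loop is shown first because it is the feature that sets these mRNAs apart. It was searched for as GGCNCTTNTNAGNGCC on the sense strand of the GENCODE 29 transcripts, and 32 of the 71 members held it, against 10 other protein-coding genes (0.0503% of them). For 33 members the annotated transcript is the coding sequence and stop codon alone, so the stem-loop lies outside the model. Below, the 6 bases of each arm of the stem are in capitals and the loop and flanks are in lower case.
HIST2H2BF: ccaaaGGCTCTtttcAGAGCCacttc
HIST1H2BD: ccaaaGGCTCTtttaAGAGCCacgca
HIST1H3H: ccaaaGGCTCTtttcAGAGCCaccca
HIST1H2AC: ccaaaGGCTCTtttcAGAGCCcccct
HIST1H2AG: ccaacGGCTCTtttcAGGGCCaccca
HIST4H4: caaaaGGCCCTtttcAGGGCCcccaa
HIST1H4H: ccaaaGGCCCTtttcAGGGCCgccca
The form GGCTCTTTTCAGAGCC was found in 17 members. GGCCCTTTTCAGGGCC and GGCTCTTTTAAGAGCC were found in 5 members each, and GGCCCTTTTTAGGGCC in 3. The annotated model of HIST1H1E gave no match.

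The histone classes also differ in the letters upstream of their start sites. RefSeq promoters (GRCh38.p14) were matched for 61 of the 71 members, and 5 short motifs were searched on both strands of the 250 bases before the start. AAACACA, the H1 box, lay in 6 of 6 H1 promoters and in none of the core histone promoters, against 4.95% of all 27305 promoters. ATTTGCAT, the octamer bound by POU2F1, lay in 11 of 14 H2A and 14 of 18 H2B promoters but in 1 of 10 H3, 0 of 6 H1 and 0 of 13 H4 promoters, against 1.66% of all. H2A and H2B genes that stand head to head can count the same site, as HIST1H2AC and HIST1H2BC do. Their counts are therefore not independent. The 1 H3 promoter is that of HIST1H3D, whose entry is the same stretch as that of HIST1H2AD. GGTCC, part of the H4 element read by the factor HINFP, lay in 12 of 13 H4 promoters, but it also lay in 40.4% of all promoters. CCAAT lay in every H1, H2A, H2B and H3 promoter matched and in 3 of 13 H4 promoters, against 33.0% of all. TATAAA lay in 3 of 6 H1, 10 of 14 H2A, 12 of 18 H2B, 8 of 10 H3 and 7 of 13 H4 promoters, against 11.1% of all. The 150 bases before the start are shown for 2 H1 genes, of which only the first passed the test below, and for an H2B and an H4 gene. Motif letters found on either strand are in capitals.
HIST1H1E, chr6:26156179-26156328, plus strand: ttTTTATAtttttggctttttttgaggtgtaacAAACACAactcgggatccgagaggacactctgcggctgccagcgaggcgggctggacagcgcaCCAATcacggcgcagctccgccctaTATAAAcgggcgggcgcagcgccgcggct
HIST1H1C, chr6:26056471-26056620, minus strand: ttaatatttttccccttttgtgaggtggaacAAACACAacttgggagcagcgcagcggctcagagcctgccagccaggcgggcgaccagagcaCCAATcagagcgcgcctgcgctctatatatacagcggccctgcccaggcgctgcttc
HIST2H2BF, chr1:149812371-149812520, minus strand: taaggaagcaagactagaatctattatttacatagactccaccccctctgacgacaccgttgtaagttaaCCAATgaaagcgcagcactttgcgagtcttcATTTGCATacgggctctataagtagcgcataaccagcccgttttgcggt
HIST1H4H, chr6:26285535-26285684, minus strand: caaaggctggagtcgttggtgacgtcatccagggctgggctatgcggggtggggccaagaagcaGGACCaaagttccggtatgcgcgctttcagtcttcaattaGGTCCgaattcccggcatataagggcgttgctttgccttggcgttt
These matches describe letters only, and binding was not measured here.

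Before the comparison, the count tables were compared with each other. Gene reads were 5737738 (siNTC 1), 5927656 (siNTC 2), 5556061 (siZBTB7A 1) and 5745862 (siZBTB7A 2). The 2 tables of a group agree within sampling noise over the histone genes: the chi-square per degree of freedom was 0.896 for siNTC (chi-square test, p = 0.672) and 0.962 for siZBTB7A (p = 0.546). Over all genes it was 0.993 and 0.995. The tables of a group were therefore counted as 1 library, and every test below compares 2 libraries and not the 2 conditions. Across groups the histone value was between 1.80 and 1.94, and over all genes between 3.5 and 3.64. ZBTB7A itself had 90 and 115 reads under siNTC and 70 and 74 under siZBTB7A, a fold of 0.743 (95% interval 0.597 to 0.924) that did not pass the test (adjusted p = 0.0969 by Benjamini-Hochberg, edgeR quasi-likelihood test). Its groups did not overlap. All intervals here are exact (Clopper-Pearson) and cover counting error only. All 7 genes listed as luminal prostate markers were detected, at 1330 to 1414 CPM summed per table. CPM are reads scaled to the TMM-adjusted gene reads, TMM being edgeR's scaling factor. That list includes ERG, at 302.3 CPM in siNTC, and KLK3, at 49.1 CPM. The leukocyte markers CD3E and LYZ were at 0 reads, and the 2 endothelial markers matched had 13 (CDH5 at 0). Summed fibroblast markers lay between 13.5 and 17.7 CPM, with COL1A2 at 0 and 322 of their 352 reads from LUM. Mitochondrial genes took 17.1% of gene reads in both siNTC tables and 20.2% in both siZBTB7A tables, and multi-mapping reads 24.4% to 24.5% against 22.2% to 22.3% of all reads. Reads in no annotated feature were 20.6% of all reads in both siNTC tables and 23.1% and 23.2% in siZBTB7A. With mitochondrial genes left out of the library size, 3 histone members were called higher and 0 lower, the same members as in the comparison below. Beyond that, the part of these differences in the results below was not tested.

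Histone mRNA was abundant in the VCaP libraries. The members together took 1.0537% of gene reads in siNTC and 1.0388% in siZBTB7A. Of the 67 members, 37 had over 1000 reads in the 4 tables together, 11 had 0 reads and 8 had between 1 and 20. The 10 members with most reads held 56.6% of all histone reads.

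**Figure D1:**
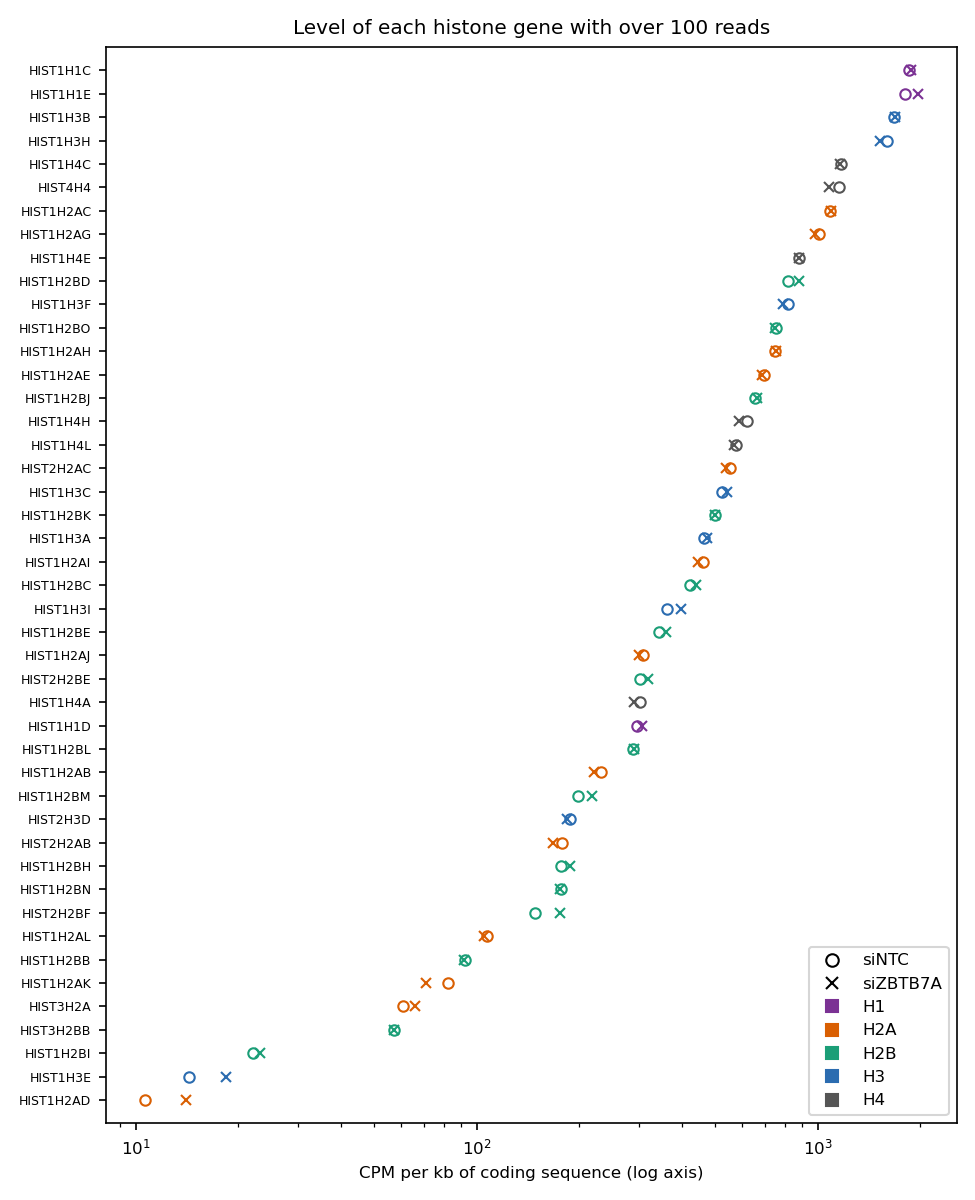
Level of each of the 45 histone genes with over 100 reads, in CPM per kilobase of coding sequence on a log axis, from the summed tables of siNTC (circles) and siZBTB7A (crosses), coloured by class. HIST1H1C and HIST1H1E lead at 1850 and 1810 in siNTC, and HIST1H2AD is lowest at 10.6.

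STAR gene counts leave out reads that map to more than 1 place, so members with near-identical copies are undercounted. Reads that fall on more than 1 gene of the same strand are also left out, as ambiguous. Shared windows do not tell these losses apart. For each member the share of 50-base windows of its longest transcript that also occur in another GENCODE gene was counted. The share was over 50% for 17 of 67 members and 0% for 28. Of the 11 members with 0 reads, 7 had over 50% of windows shared and 4 had none shared. The latter were HIST1H1A, HIST1H2AA, HIST1H2BA and HIST1H4G. HIST1H2AA and HIST1H2BA are known as testis histones and lie next to each other. The near-identical gene pairs HIST2H2AA3 and HIST2H2AA4, HIST2H3A and HIST2H3C, and HIST2H4A and HIST2H4B had 1 read among them, so their levels are unknown here. HIST1H2AD, with 98.0% of windows shared, had 110 reads, and its level is likewise uncertain. Its exons overlap another gene on the same strand, AL031777.3, over 98.0% of their length. Such overlap was 100% for HIST1H3D and 99.5% for HIST2H3PS2, both at 0 reads, and 88.0% for HIST1H2AM.

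**Figure D2:**
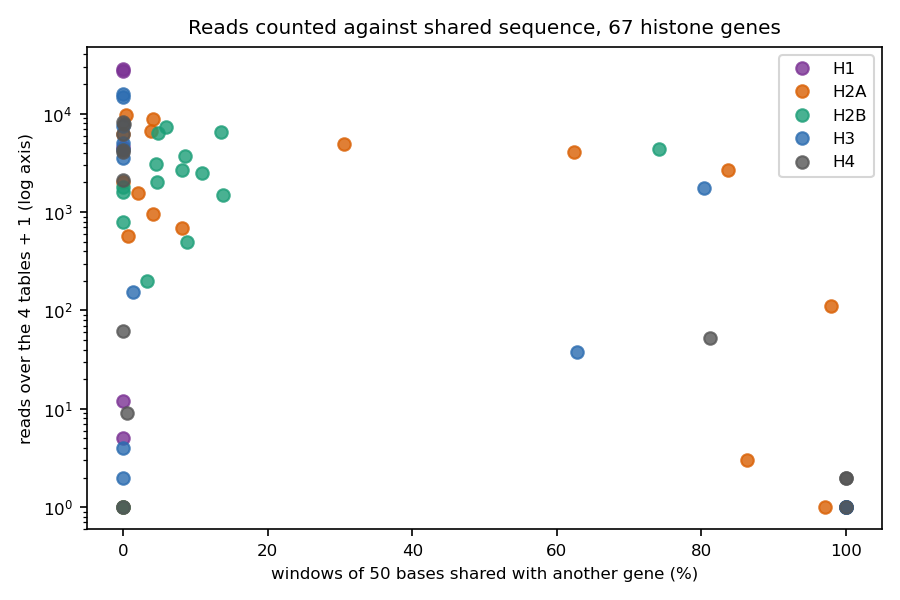
Reads of each of the 67 histone genes summed over the 4 tables, plus 1, on a log axis, against the share of its 50-base transcript windows that occur in another gene, in percent. Members with 0 reads are found both above 50% shared windows (7 genes) and at 0% (4 genes).

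Per kilobase of coding sequence, levels in siNTC differed widely within each class. Coding length is used here, except where exonic sequence is named, since many gene models lack UTRs. Coverage outside it also enters the counts, so orders between genes are approximate. Among H1 genes HIST1H1C stood at 1850 CPM per kb and HIST1H1E at 1810, close to each other, followed by HIST1H1D at 296.0. In siZBTB7A the order of the first 2 was the other way, with 1880 for HIST1H1C and 1974 for HIST1H1E. HIST1H1B had only 4 and 2 reads in siNTC and 2 and 3 in siZBTB7A. All 6 H1 genes have 0% of windows shared. HIST1H1T, the testis H1, had 4 reads in all.

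Among the H3 genes HIST1H3B (1680 CPM per kb) and HIST1H3H (1599) led, and HIST1H3F followed at 819. H4 was led by HIST1H4C at 1170 and HIST4H4 at 1152. HIST4H4 lies alone on chromosome 12, where H2AFJ is its next coding neighbour. H2A was led by HIST1H2AC at 1086 and HIST1H2AG at 1008. H2B had no gene at that level: its leading members were HIST1H2BD at 819 and HIST1H2BO at 754. The class sums per kb in siNTC were 3958 for H1, 5538 for H2A, 4952 for H2B, 5655 for H3 and 4716 for H4, all in CPM. The 4 core classes lay within 1.5-fold of each other, with the shared-window losses above left in. Per kb of exonic sequence in siNTC, HIST1H3B (1668) and HIST1H4C (831.2) still led their classes, but other places changed. HIST4H4 (138.1) then lay below HIST1H4E (183.1), and HIST1H3H (527.5) below HIST1H3F (813.2). HIST1H2AC (253.9) and HIST1H2AG (174.7) lay below HIST1H2AH (745.8), and HIST1H2BD (355.6) below HIST1H2BO (748.4).

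H2A and H2B genes often stand head to head with a shared promoter region, and 11 such pairs were found with at most 1000 bases between starts. In 7 pairs both genes had over 100 reads. The H2A gene of the pair had the larger level per kb of coding sequence in 7 of these 7 pairs, with values given here as a description. In the HIST1H2BC and HIST1H2AC pair the siNTC levels were 423 for the H2B gene and 1086 for the H2A gene. In the HIST1H2BJ and HIST1H2AG pair they were 654 and 1008, and in the HIST2H2BE and HIST2H2AC pair 300.6 and 554. The closest pair was HIST3H2A at 61.0 and HIST3H2BB at 57.3. Per kb of exonic sequence the order turned in the HIST1H2BJ and HIST1H2AG pair alone, at 286.2 and 174.7. Shared windows were 74.1% for HIST1H2BK on the H2B side, and 62.3% for HIST1H2AI and 83.7% for HIST1H2AJ on the H2A side. The levels of these genes may be undercounts. The fold of siZBTB7A over siNTC was larger for the H2B gene in 5 of the 7 pairs, among them 1.043 for HIST1H2BC against 1.006 for HIST1H2AC and 1.055 for HIST2H2BE against 0.974 for HIST2H2AC.

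The comparison of siZBTB7A with siNTC asks how the histone genes stand after transfection with the ZBTB7A siRNA. Most of them differed little. The test could be run on 47 of the 67 members, and 3 were higher in siZBTB7A and none lower. Over all 12848 genes tested, 4.97% were called, 2.25% as higher (289 genes) and 2.72% as lower (350 genes). Of the histone genes tested, 6.38% were called higher, a count of only 3 genes. Without the TMM factor, the split over all genes was 171 higher (1.33%) and 579 lower (4.51%), and among the members 1 was higher and 2 were lower. The members' split was also 1 higher and 2 lower with the GC and length correction, and 3 higher and 1 lower among protein-coding genes only. At an unadjusted p under 0.05, 4 members tested higher and 3 lower. The share of all genes at that threshold was not computed, so these counts cannot be read as many or few. In bulk RNA, a different share of cells in S phase and a different amount of histone mRNA per cell cannot be told apart.

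HIST1H1E (ENSG00000168298.6), a linker histone gene and the most read member, rose in siZBTB7A. Its level was 1189 and 1190 CPM under siNTC and 1293 and 1301 CPM under siZBTB7A. Both siZBTB7A tables lay above both siNTC tables, and the fold of summed reads was 1.09 (1.07 to 1.12). The log2 fold change was 0.13 with a standard error of 0.017 (adjusted p = 9.88e-09 by Benjamini-Hochberg, edgeR quasi-likelihood test). The call was kept under each of the 15 alternatives run, with adjusted p between 4.36e-12 and 0.00105. With no TMM factor the log2 value was 0.09, and with a GC and length correction it was 0.08. Reads on the strand opposite to HIST1H1E numbered 902 in siNTC and 915 in siZBTB7A, 5.99% of its reads on both strands, with a fold of 1.07 (0.978 to 1.18).

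HIST1H1C, the other abundant H1 gene, lay at 1168 and 1196 CPM in siNTC and 1181 and 1221 CPM in siZBTB7A. Its groups overlapped, its fold was 1.02 (0.992 to 1.04), and the call was not made (adjusted p = 0.534 by Benjamini-Hochberg, edgeR quasi-likelihood test). HIST1H1D lay at 195.9 and 196.5 CPM against 198.4 and 207.1 CPM, a fold of 1.03 (0.975 to 1.10). Its groups did not overlap, yet its interval spans 1. Taken without HIST1H1E, whose removal lowers the sum in any case, the summed H1 reads had a fold of 1.02 (0.996 to 1.04).

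HIST2H2BF (ENSG00000203814.6) and HIST1H2BD (ENSG00000158373.8), the other called members, both encode H2B. HIST2H2BF had 58.5 and 61.3 CPM in siNTC and 71.1 and 70.7 CPM in siZBTB7A, a fold of 1.18 (1.07 to 1.31). HIST1H2BD had 309.4 and 310.0 CPM in siNTC and 331.1 and 334.7 CPM in siZBTB7A, a fold of 1.08 (1.03 to 1.13). The siZBTB7A tables lay above the siNTC tables for both genes. Their adjusted p were 0.0340 and 0.0420 (edgeR quasi-likelihood test, Benjamini-Hochberg), near the threshold. Each lost its call with DESeq2, with no TMM factor, with the GC and length correction, and when any 1 of the 4 tables was left out. HIST1H2BD also lost it with no filter on low counts. The number of members called higher was 1 with DESeq2, where 42 (1.08%) of the 3881 genes given an adjusted p were higher. It was 1 without siNTC 1, siNTC 2 or siZBTB7A 1, and 2 without siZBTB7A 2, where 1.18%, 1.24%, 1.24% and 1.07% of all genes were higher. With the replicate number as a block 3 were called higher, against 2.31% of all genes. HIST1H2BD and HIST2H2BF share 5.95% and 13.9% of the windows of their longest transcripts with other genes. These transcripts have 789 and 1954 bases, against coding lengths of 378 and 403. The share within the coding part was not measured, so the part of their reads lost to other genes is not known.

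The other H2B genes had folds from 0.994 to 1.09, and none passed. HIST1H2BO stood at 291.5 and 279.0 CPM against 281.5 and 286.6 CPM, with overlapping groups. HIST1H2BJ stood at 267.9 and 275.8 CPM against 273.1 and 279.9 CPM, also overlapping. HIST1H2BK, which shares 74.1% of its windows with other genes, had a fold of 0.999 (0.941 to 1.06). HIST1H2BN had 26.5% of its reads on the opposite strand, where it overlaps HIST1H2AK, and the opposite reads numbered 408 in siNTC and 322 in siZBTB7A.

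None of the 13 H2A genes tested passed, and 9 of them had a fold below 1. The leading H2A genes hardly differed: HIST1H2AC was at 425.8 and 421.4 CPM against 426.5 and 425.3 CPM, a fold of 1.01 (0.966 to 1.05). HIST1H2AG was at 393.6 and 392.6 CPM against 383.9 and 380.2 CPM, a fold of 0.972 (0.932 to 1.01). The groups overlapped for HIST1H2AC and did not for HIST1H2AG. HIST1H2AH and HIST1H2AE had folds of 1.002 (0.955 to 1.05) and 0.987 (0.939 to 1.04). The smallest fold among members with at least 100 reads was that of HIST1H2AK, 0.858 (0.736 to 0.9999), from 193 and 188 reads against 149 and 160. The largest was that of HIST1H2AD, 1.32 (0.890 to 1.96), from 25 and 24 reads against 28 and 33. Both rest on few reads, and neither passed the test.

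Of the H3 genes, HIST1H3B lay at close levels in both libraries, 680.3 and 690.5 CPM against 671.2 and 702.6 CPM, a fold of 1.002 (0.972 to 1.03). HIST1H3H, the second H3 gene, was at 645.3 and 659.6 CPM in siNTC and 621.5 and 621.0 CPM in siZBTB7A. Its groups did not overlap, with a fold of 0.952 (0.922 to 0.984) and an adjusted p of 0.0624 (edgeR quasi-likelihood test, Benjamini-Hochberg). It passed as lower with no TMM factor (log2 −0.11, adjusted p = 0.00101, against 4.51% of all genes called lower there), with the GC and length correction (log2 −0.11, adjusted p = 0.00297, against 1.36% of all genes lower and 1.35% higher) and among protein-coding genes only (log2 −0.07, adjusted p = 0.0456, against 2.76% of all genes). HIST1H3F was at 330.2 and 338.1 CPM against 313.9 and 330.2 CPM, and HIST1H3C at 209.7 and 217.9 CPM against 221.9 and 219.5 CPM. HIST1H3I had a fold of 1.10 from 859 and 885 reads against 933 and 874, and passed only when siZBTB7A 2 was left out.

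Of the H4 genes, HIST4H4 lay at 354.3 and 357.8 CPM in siNTC and 331.6 and 337.0 CPM in siZBTB7A. Its groups did not overlap, its fold was 0.939 (0.898 to 0.982), and its adjusted p was 0.0783 (edgeR quasi-likelihood test, Benjamini-Hochberg). It passed as lower with no TMM factor (log2 −0.13, adjusted p = 0.00393) and with the GC and length correction (log2 −0.11, adjusted p = 0.0398). HIST1H4H, whose promoter is shown above, had a fold of 0.951 (0.895 to 1.01). HIST1H4C at 355.6 and 367.4 CPM against 368.4 and 351.7 CPM and HIST1H4E at 279.8 and 265.0 CPM against 268.2 and 275.7 CPM had overlapping groups.

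**Figure D3:**
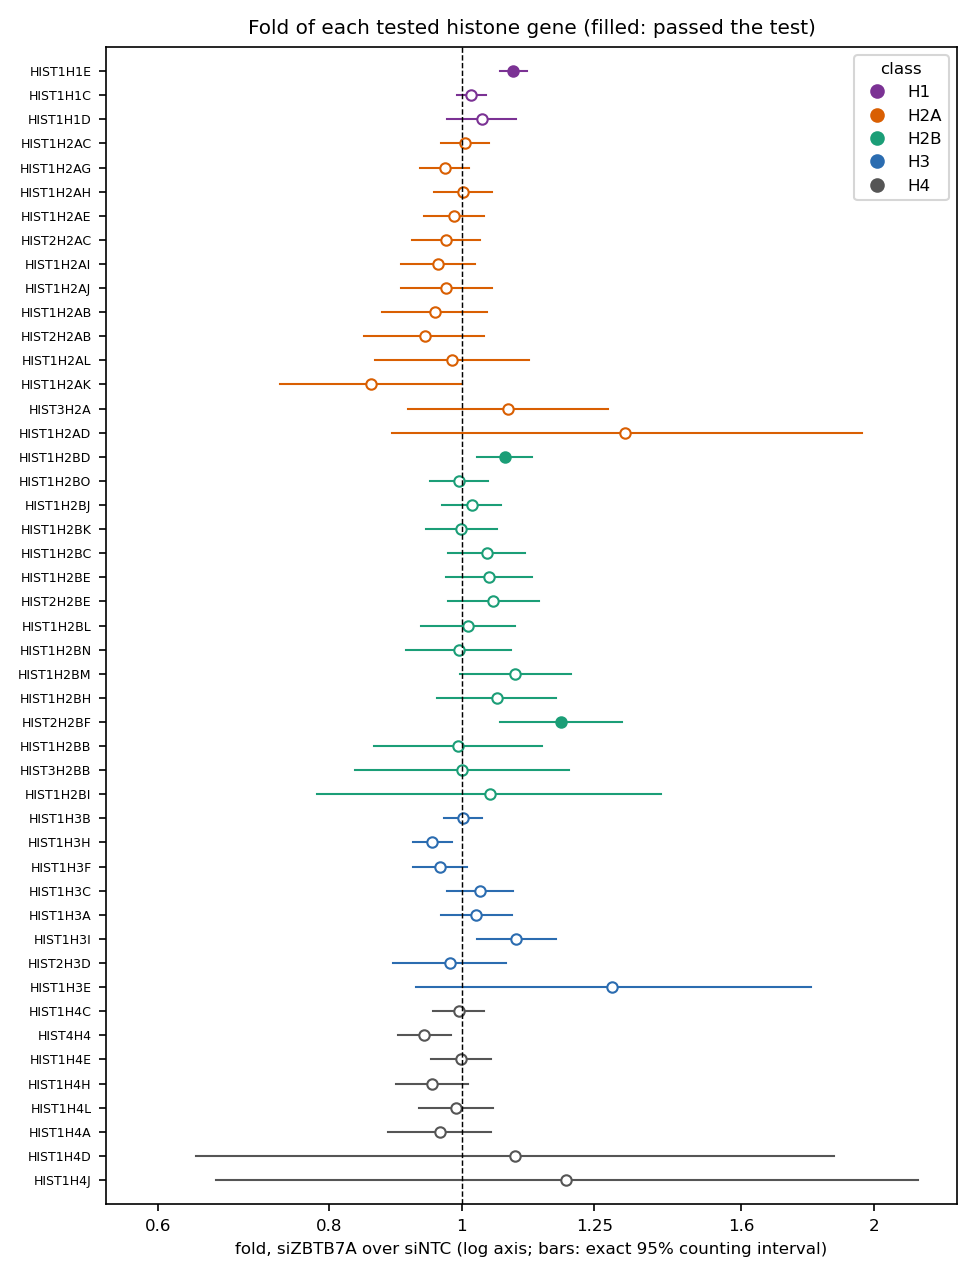
Fold of siZBTB7A over siNTC for the 47 histone genes tested (log axis), with exact 95% intervals for counting error, grouped by class; filled points passed the test. HIST1H1E (1.09), HIST2H2BF (1.18) and HIST1H2BD (1.08) passed, and the low-count genes have the widest intervals.

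Summed over all members, histone reads made up 10407 CPM in siNTC and 10519 CPM in siZBTB7A, a fold of 1.01 (1.003 to 1.02). That sum also lay above 1 with DESeq2 size factors (1.0103) and with mitochondrial genes left out of the library size (1.0099). Of the scalings run, only the one with no TMM factor put it below 1, at 0.986 (0.978 to 0.994). The median log2 value of all genes was then −0.035, a fold of 0.976. Without HIST1H1E the summed fold on TMM-adjusted totals was 1.0004. Without HIST1H1E and HIST1H1C together, an alternative added after seeing the data, it was 0.998. Members with under 50% of windows shared gave 1.01. The spread of log2 folds among the 39 members with at least 30 CPM had an SD of 0.071, against 0.051 from counting alone, and 0 of them lay beyond 1.5-fold. Among 5325 other protein-coding genes at that level the SD was 0.12, against 0.077 from counting alone.

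Within the histone pool, which needs no scaling across libraries, the classes took slightly different shares. H1 took 24.6% and 24.8% of histone reads in siNTC and 25.5% and 25.9% in siZBTB7A. H2B took 18.5% and 18.4% against 19.0% and 18.9%. H2A took 20.8% and 20.5% against 20.3% and 19.9%, H3 took 22.0% and 22.4% against 21.7% and 21.9%, and H4 took 14.1% and 13.9% against 13.5% in both. The siZBTB7A tables lay above both siNTC tables for H1 and H2B and below both for H2A, H3 and H4. Shares of 1 pool are tied to each other, so a larger share for 1 class lowers the rest. In CPM the H3 tables overlapped, at 2279.7 and 2333.6 in siNTC and 2269.8 and 2312.3 in siZBTB7A. Those of H1, H2A, H2B and H4 did not overlap in CPM.

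**Figure D4:**
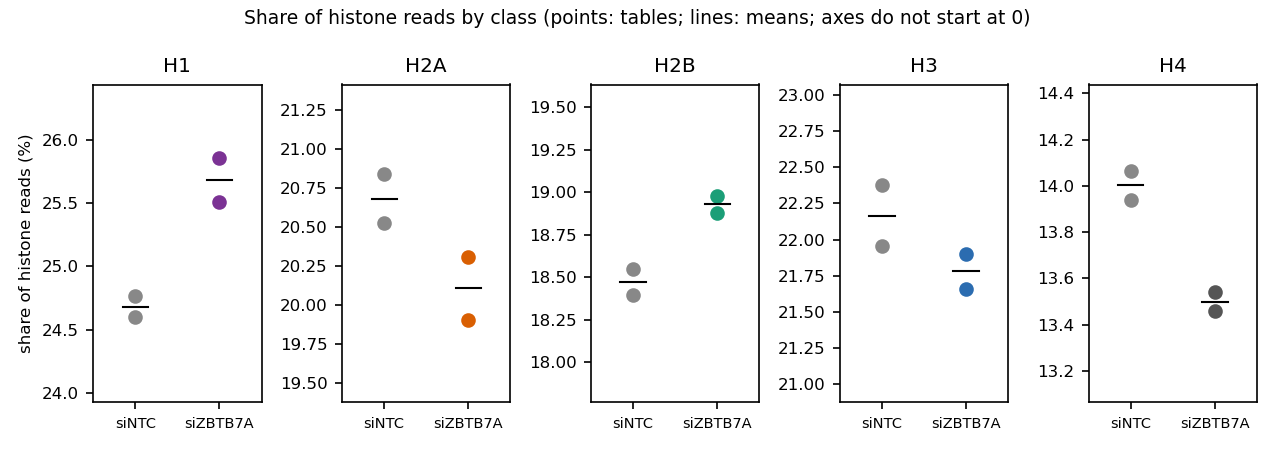
Share of histone reads, in percent, taken by each class in each of the 4 tables, 1 panel a class, with points for tables and lines for their means; the axes do not start at 0. H1 lies at 24.6% and 24.8% in siNTC and 25.5% and 25.9% in siZBTB7A, and H4 at 14.1% and 13.9% against 13.5%.

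The class sums relative to the other histones had folds of 1.05 (1.04 to 1.07) for H1, 1.03 (1.01 to 1.05) for H2B, 0.965 (0.948 to 0.982) for H2A, 0.978 (0.961 to 0.995) for H3 and 0.958 (0.938 to 0.979) for H4. On the TMM scale the folds were 1.05, 1.04, 0.983, 0.993 and 0.974 in the same order. With no TMM factor they were 1.03, 1.01, 0.958, 0.969 and 0.950, so each class kept its side of 1. The interval spanned 1 for H3 on the TMM scale (0.976 to 1.01), for H2A there (0.965 to 1.0003) and for H2B with no TMM factor (0.992 to 1.03). Left without siNTC 2 or siZBTB7A 1, the H3 sum on the TMM scale lay above 1, at 1.0055 and 1.0026. H2B without its 2 called genes had a fold of 1.02 (1.001 to 1.04) on the TMM scale and 1.01 (0.993 to 1.03) relative to the other histones. H1 without HIST1H1E had 1.01 (0.987 to 1.03) relative to the other histones, so both spanned 1 on that scale. The genes left out are those called higher in these same data. Their removal therefore lowers both sums whatever the rest of the class does. Single genes followed the sums only in part: folds above 1 were found in 3 of 3 H1, 11 of 15 H2B, 4 of 13 H2A, 5 of 8 H3 and 2 of 8 H4 genes tested, and in 25 of 47 overall (17 of 47 with no TMM factor). Left without siNTC 1, 6 of 13 H2A, 4 of 8 H4 and 4 of 9 H3 genes lay above 1.

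**Figure D5:**
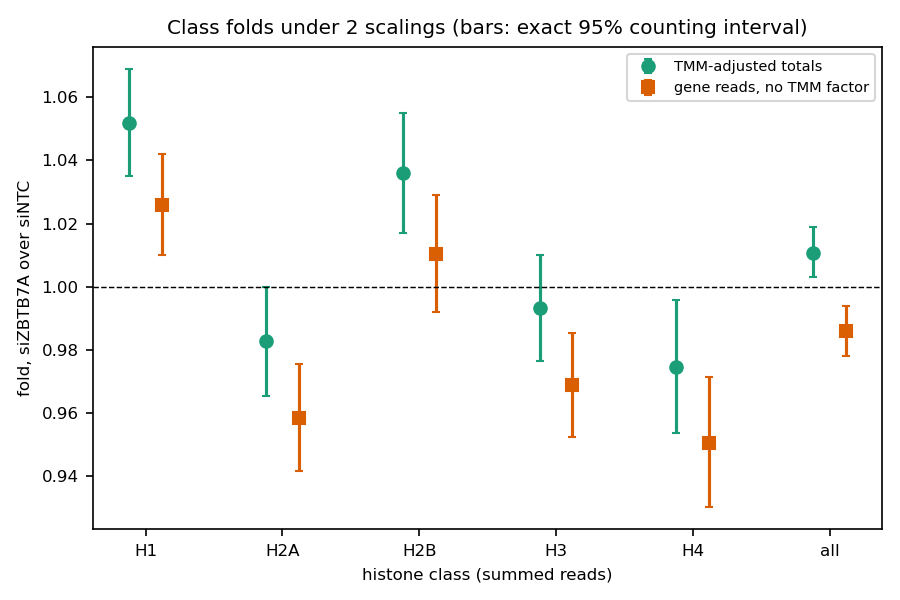
Fold of summed reads per histone class and for all members, siZBTB7A over siNTC, with exact 95% intervals for counting error, on TMM-adjusted totals and with no TMM factor. H1 lies at 1.05 and 1.03 and H4 at 0.974 and 0.950, while all members lie at 1.01 and 0.986, on either side of 1.

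The 30 genes of the first histone cluster on chromosome 6 held 62.1% of histone reads and had a summed fold of 1.02 (1.01 to 1.04). The neighbouring clusters of 5 and 16 genes on that chromosome had 0.995 (0.971 to 1.02) and 0.986 (0.968 to 1.005). The first cluster holds HIST1H1E, and without it the fold was 1.01 (0.998 to 1.02). Members annotated to run over 100 bases past the stem-loop (17 genes) had a summed fold of 0.988 (0.972 to 1.004), and the other 50 had 1.02 (1.01 to 1.03). Those 50 include HIST1H1E, without which they had 1.005 (0.995 to 1.02). Both values without HIST1H1E were added after seeing the data.

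Other genes of the pathway were taken from lists that cover replacement histones, histone transcription and processing, decay, chaperones and S phase. Of 96 genes tested, 9 were called, 3 higher and 6 lower, against the 4.97% of all genes. With no TMM factor 1 was higher and 10 were lower, and with the GC and length correction 1 was higher and 5 were lower. Replacement histones, which are also made outside S phase, had 2 lower of 11 tested, with a median fold of 0.999. H2AFJ, an H2A variant gene next to HIST4H4 on chromosome 12, fell from 228.0 and 215.5 CPM to 179.1 and 188.8 CPM, a fold of 0.830 (0.783 to 0.880) (adjusted p = 5.26e-07 by Benjamini-Hochberg, edgeR quasi-likelihood test), and did so under each alternative run. H2AFV, an H2A.Z gene, fell to 0.918 (adjusted p = 0.0465) and lost the call with no filter, on unstranded counts, with the GC and length correction, and without siNTC 1, siNTC 2 or siZBTB7A 1.

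Genes for histone transcription and processing had 1 lower of 25 tested. That gene, POU2F1, whose octamer ATTTGCAT is marked in the HIST2H2BF promoter above, lay at 53.2 and 56.1 CPM against 45.0 and 43.2 CPM, a fold of 0.806 (0.715 to 0.908) (adjusted p = 0.0144 by Benjamini-Hochberg, edgeR quasi-likelihood test). It lost the call with DESeq2, with the GC and length correction and without 3 of the tables in turn (siNTC 2, siZBTB7A 1 and siZBTB7A 2). The 24 histone genes with the octamer letters had a summed fold of 1.01 (0.991 to 1.02), and the 33 other matched genes had 1.01 (1.003 to 1.02). SLBP was at 60.3 and 62.0 CPM against 68.3 and 70.2 CPM, a fold of 1.13 (1.02 to 1.26) that was not called (adjusted p = 0.153). NPAT, the histone locus body organiser, had a fold of 0.877 (adjusted p = 0.300) and CASP8AP2 1.03. The U7-associated LSM10 and LSM11 had 0.978 and 1.38 (adjusted p = 0.216), and ZNF473 had 0.826 (adjusted p = 0.0546), which passed with no TMM factor, on unstranded counts and among protein-coding genes only. HINFP, which binds the H4 element, had a fold of 1.01 (0.866 to 1.18).

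In the decay list 1 of 9 tested was lower, the decapping gene DCP2 at 0.822 (adjusted p = 0.000642 by Benjamini-Hochberg, edgeR quasi-likelihood test). Chaperone genes had 2 higher and 1 lower of 25: NPM1 at 1.12, NAP1L1 at 1.08 and ATRX at 0.856. The S-phase list had 1 higher and 1 lower of 26, E2F1 at 1.24 (adjusted p = 0.00223) and the DNA ligase LIG1 at 0.819 (adjusted p = 0.0360), with a list median of 0.969. Every called gene of these lists except H2AFJ lost its call with DESeq2. With the GC and length correction DCP2 stood at a log2 value of −0.18 (adjusted p = 0.0756), ATRX at −0.11 (adjusted p = 0.362) and E2F1 at 0.22 (adjusted p = 0.0626), and NPM1 also lost its call. ATRX lost it without siNTC 1 or siZBTB7A 1, E2F1 without siNTC 2 or siZBTB7A 1, and NAP1L1 with no TMM factor and without siNTC 2, siZBTB7A 1 or siZBTB7A 2. NPM1 and LIG1 lost it with no filter and without any 1 of the 4 tables, and NPM1 also with no TMM factor.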

How the data were processed

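The authors deposited whole-number read counts per gene for RNA-seq in 4 tables, in the STAR gene count layout; the submitters' processing notes name STAR 2.4.2a and hg19 or GRCh37, while the release of the gene annotation was not given in the sources used here. The count on the strand of the kit was used, which exceeded the other strand 24.9 to 25.5 times. The 4 rows that name no gene held 50.8% to 51.2% of reads and were left out.

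Genes were named with GENCODE 29, which is on GRCh38, so gene coordinates were not transferred. The members and lists were chosen with earlier results of these data known. The test was edgeR 4.0.16 in R 4.3.3 (quasi-likelihood, robust, TMM, filterByExpr, all 4 tables, adjusted p under 0.05), over 12848 genes. Folds used summed tables over TMM-adjusted gene reads with exact 95% intervals. CPM were computed on the same scale. Named genes were ZBTB7A, every called member, the 4 most read members of each class, and members with the largest and smallest fold from at least 100 reads; HIST1H3I, HIST1H2BN and the pairs were added for description after their values were seen.

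On simulated counts with 50 genes changed per fold, the test called 32 at 1.25-fold and 49 at 1.5-fold, with 11 unchanged genes called. The changed genes all had more reads than ZBTB7A, and the counts held sampling noise only. The simulation therefore does not cover genes with as few reads as ZBTB7A, or spread between cultures. Same-numbered tables did not deviate together (correlation −0.014). Alternatives were DESeq2 1.42.0, other scalings and filters, unstranded counts, a replicate block, a GC and length correction and leaving out each table. Intervals and sums were computed with scipy 1.17.1 and pandas 2.3.3 under Python 3.11.15. A marker gene of the lists is not reported here.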

Additional observations from a re-analysis of the deposited data

How the results depend on the processing

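The number of genes called over the whole table was 639, and it was 89 with DESeq2 (42 higher, 47 lower), 347 with the GC and length correction and 303 to 373 when a table was left out. Called histone genes numbered 3 (3 higher, 0 lower), and 3 (1 higher, 2 lower) both with no TMM factor and with the GC and length correction, where 1 call was shared with the first count, and 1 with DESeq2 and 1 to 2 when a table was left out; genes of the related lists numbered 9, and 1 with DESeq2 and 2 to 6. The cause was not tested. The summed histone fold of 1.0108 became 0.98583 with no TMM factor, 1.0004 without the most abundant member and 0.99812 without HIST1H1E and HIST1H1C, which was added after seeing the data; it lay between 1.0061 and 1.0148 when a table was left out. With the replicate number as a block, 654 genes and 3 histone genes were called; the block changed no histone call, and the shared numbers are not known to mark a shared culture. Of the other settings, no filter called 502 genes and no TMM factor 750. DESeq2 gave an adjusted p for only 3881 of the 12848 genes, and ZBTB7A was not among them. With 1 library per group, p-values do not measure biological spread; members with few reads have intervals too wide to show differences of the size seen for HIST1H1E.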

Other observations

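HIST1H4I had 8 reads on its own strand in the 4 tables, while 79 reads in siNTC and 82 in siZBTB7A lay on the opposite strand, 95.3% of its reads. Among the 37 members with over 1000 reads the median share on the opposite strand was 0.147%, and it was above 1% for 4 of them. HIST1H2BN at 26.5% and HIST1H1E at 5.99% were the highest of these.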
